A study of Mus musculus with 24 samples.

Results

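Wnt ligands, their receptors and the secreted proteins that modulate them were followed across 4 groups of mouse hippocampal RNA libraries. Members were the genes whose symbol belongs to the Wnt, Frizzled, Sfrp, Dkk, Axin or R-spondin series or is Lrp5, Lrp6, Wif1, Frzb or Ndp, provided that at least 10 reads were counted in at least 3 of 22 libraries. Of the 49568 gene lines in each file, 48 carried such a symbol and 43 met the count requirement: 17 Wnt ligands, 10 Frizzled receptors, 2 coreceptors, 8 secreted antagonists, 4 agonists outside the Wnt genes and 2 Axin scaffolds. Dkk1, Dkk4, Rspo4, Wnt3a and Wnt8a fell below it, with at most 21 counts in any of the 22 libraries.

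The libraries came from whole hippocampi of male mice, 12 weeks old by their labels, on a C57-Bl/6J background, from a study that asked how enrichment and MSK1, a kinase that acts on chromatin and transcription factors downstream of BDNF, bear on hippocampal gene expression. Mice were homozygous either for the wild-type Msk1 allele (WT) or for a kinase-dead allele (MSK1 KD, shortened to KD), in which a point mutation inactivates the N-terminal kinase domain, and both genotypes lived either under standard housing (SH) or with environmental enrichment (EE), which gave more space, toys and a running wheel. Each of the 4 groups had 6 libraries, 24 in all. Because the allele differs by a point mutation, counts of Rps6ka5, the gene for MSK1, do not check the genotype, and its mean level was 25.4 CPM in WT SH and 26.1 CPM in KD SH. WT and KD mice were bred as separate homozygous lines, enriched mice shared large cages from birth, and the labels do not state that a library is 1 animal, so p-values measure the spread between these libraries, which may be in part technical.

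Libraries 33B and 34B failed the study's quality control and were left out here. The study removed 5 more for poor correlation with their own group, namely 12 (WT SH), 31B and 35A (WT EE), 2 (KD SH) and 9 (KD EE). That left 17 libraries, 5 in WT SH, 3 in WT EE, 5 in KD SH and 4 in KD EE, on which the group comparisons below rest, and values over the 22 are given after them. Leaving out libraries that disagree with their group narrows the spread within groups, and in each of the 5 Ttr lay outside the range of the libraries retained in its group, so the adjusted p-values over the 17 hold only given that removal. The 17 held between 13003876 and 54292242 counts on genes, so that 3 counts, taken as the limit of detection, were worth 0.0553 to 0.231 CPM (gene counts scaled by library size). Hippocampal markers were present: in WT SH, Prox1 of dentate granule cells averaged 117 ± 11.7 CPM, Wfs1 of CA1 193 ± 16.9 CPM and Zbtb20 404 ± 18.6 CPM (SD, n = 5). Over the 22 libraries, the summed level of 8 hippocampal identity genes ran from 2362 to 2742 CPM in WT SH and from 2297 to 2707 CPM in WT EE. In KD it ran from 2028 to 2691 CPM with SH and from 2385 to 2497 CPM with EE.

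Wnt proteins are secreted lipid-modified ligands that bind Frizzled receptors, together with Lrp5 or Lrp6 for the branch that stabilises beta-catenin. Axin scaffolds the complex that otherwise destroys beta-catenin, R-spondins keep Frizzled receptors at the cell surface, norrin (Ndp) is an unrelated ligand of Fzd4, and Sfrp, Wif1 and Frzb proteins trap ligands outside the cell, whereas Dkk proteins act on the coreceptors. In the hippocampus the pathway is known for patterning the structure during development, for adult neurogenesis in the dentate gyrus, for synapse assembly and for the blood-brain barrier. Ttr, which encodes transthyretin, the thyroid hormone carrier of the cerebrospinal fluid, is made in the brain chiefly by the epithelium of the choroid plexus, a tissue that lies against the hippocampus.

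Levels of different genes were compared per kilobase of exon in the 5 WT SH libraries. Dkk3, a divergent Dickkopf protein abundant in forebrain neurons, stood far above the rest at 113 ± 8.04 CPM per kilobase (SD, n = 5), with 5 libraries between 102 and 122. The next were the ligand Wnt7b at 9.75 ± 1.20, the antagonist Frzb at 7.69 ± 0.61, Axin1 at 7.37 ± 0.59 and Rspo2 at 5.71 ± 0.33 CPM per kilobase. Ranges over the 5 libraries overlapped between most neighbours in this order, and were separate in 3 of 42 neighbouring pairs: Dkk3 from Wnt7b, Axin1 from Rspo2, and Rspo2 from Lrp6. Among Frizzled receptors, Fzd1 (2.83 ± 0.39), Fzd7 (2.74 ± 0.47), Fzd2 (2.54 ± 0.33) and Fzd9 (2.44 ± 0.35) led, and Fzd5 (0.25 ± 0.05) and Fzd10 (0.23 ± 0.06) had the lowest CPM per kilobase. Ligands spanned from Wnt7b down to Wnt8b (0.15 ± 0.05) and Wnt9b (0.14 ± 0.05), the members with the lowest levels per kilobase.

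**Figure D1:**
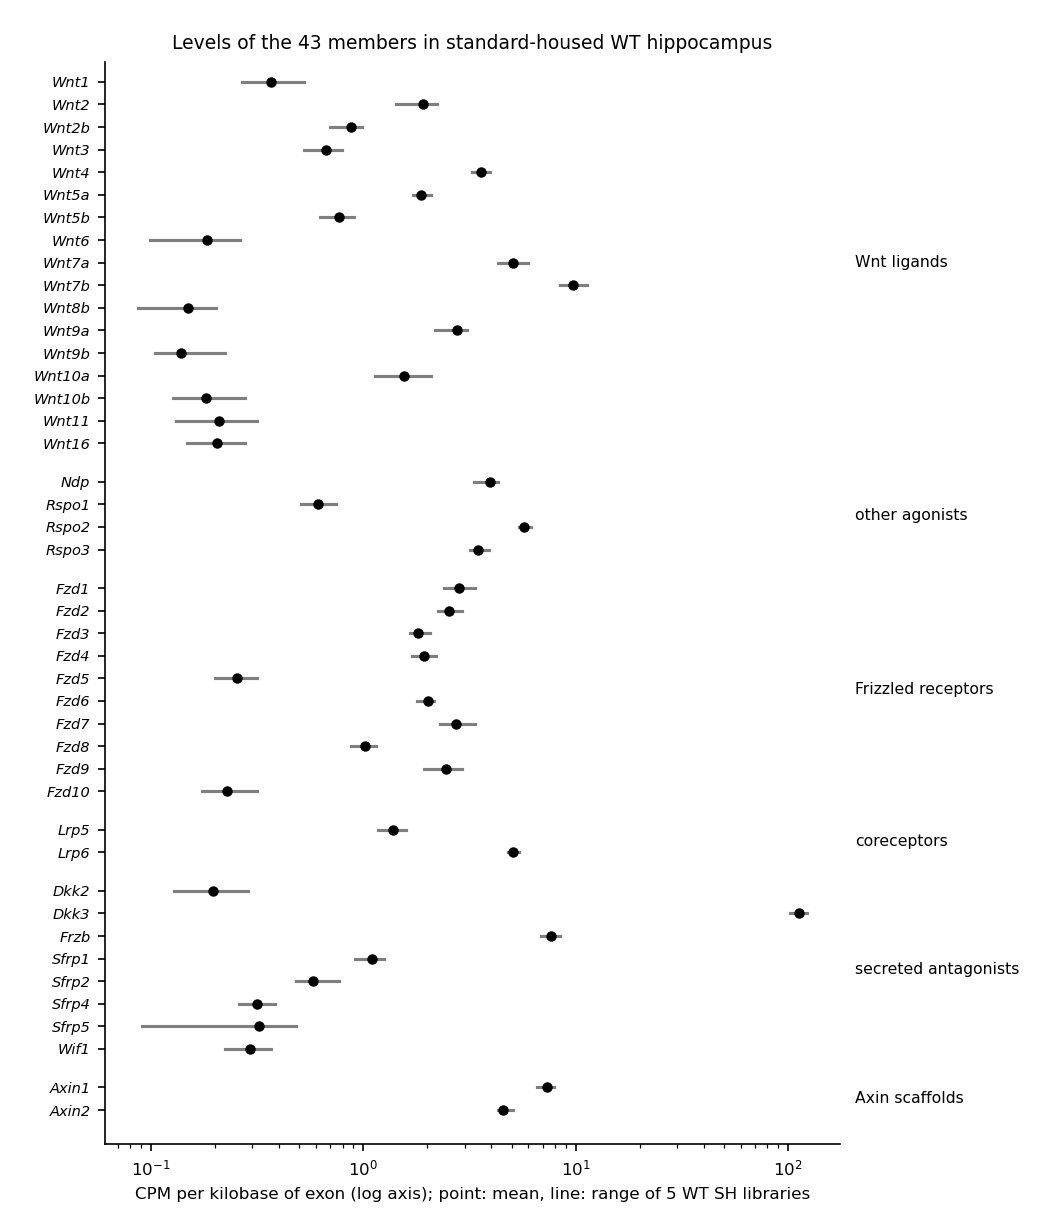
Level of each of the 43 members in CPM per kilobase of exon on a log axis, in the 5 WT SH libraries, with the mean as a point and the range as a line, grouped by role. Dkk3 lies alone near 113, and most ligands, receptors and antagonists lie between 0.14 and 9.75.

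Ttr ranged from 16.8 to 5126 CPM over the 22 libraries. It stood at 28.5, 690.4, 36.3, 48.9 and 34.3 CPM in WT SH libraries 10, 11, 13, 14 and 15 and at 4728, 3679 and 4663 CPM in WT EE libraries 16, 17 and 33A. In KD it stood at 66.9, 128, 136, 16.8 and 17.9 CPM in SH libraries 1, 3, 4, 5 and 6 and at 909.9, 1963, 2692 and 5126 CPM in EE libraries 7, 8, 32A and 36A. The housing groups did not overlap in either genotype among these 17, and the log2 fold change was 4.71 ± 0.89 (SE) in WT and 5.18 ± 0.89 in KD (edgeR quasi-likelihood test, adjusted p = 0.00174 and 0.00121). Without WT SH library 11 the WT log2 fold change became 6.88. The 5 removed libraries went the other way: Ttr was at 1659.7 CPM in WT SH library 12 and at 2622 CPM in KD SH library 2, but at 41.7 and 34.2 CPM in WT EE libraries 31B and 35A and at 166 CPM in KD EE library 9. Over the 22 libraries the Ttr groups overlapped, and the log2 fold change was 2.66 ± 1.33 in WT and 2.12 ± 1.31 in KD (adjusted p = 0.598 and 0.608). Ttr did not move alone. All 15 genes of a choroid plexus epithelium list, among them Otx2, Kl, Aqp1, Folr1 and Kcnj13, were called higher with enrichment in both genotypes, and the list's median on the log2 scale was 4.19 in WT and 4.17 in KD, against medians of -0.0024 and -0.00033 over all genes tested. Over the 17 libraries their summed level ran from 245.9 to 1345 CPM in WT SH, from 5945 to 8041 CPM in WT EE, from 226.4 to 441.1 CPM in KD SH and from 1674 to 8377.5 CPM in KD EE. Over the 22 the ranges overlapped, from 245.9 to 2787 CPM in WT SH, 232.6 to 8041 in WT EE, 226.4 to 4363 in KD SH and 467.5 to 8377.5 in KD EE, and none of the 15 was at 0 in any library. In bulk RNA, fewer cells of a type and less RNA per cell cannot be told apart, and the part of choroid plexus tissue in the results that follow is given as values beside them and was not tested.

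Enrichment in WT mice was compared first. Genes were called at an adjusted p of at most 0.05 and a log2 fold change of at least 0.38 (1.3-fold) in either direction. Of the 43 members, 5 rose and 2 fell. Members that rose were the receptors Fzd4 and Fzd7, the coreceptor Lrp5 and the antagonists Sfrp1 and Sfrp5, and those that fell were the ligand Wnt7a and the agonist Ndp. The share called higher was 11.6% of members against 3.48% of the 18701 genes tested, and the share called lower was 4.65% against 0.0695%. Housing groups stood apart, with every EE library on one side of every SH library, for 6 members upward and 2 downward, 14% and 4.65% of members, against 8.1% and 4.32% of all genes. The median over the 43 members was 0.02 on the log2 scale, with 23 above 0 and 20 below. Receptors and secreted decoys were thus both among the members that rose, and both members that fell encode ligands. In KD mice 3 members rose (Fzd4, Fzd7 and Sfrp5), 6.98% against 1.64% of all genes, and 0 fell against 0.0963%. Libraries 32A, 33A and 36A carry a letter in their code whose meaning the labels do not give. Without them WT EE held only libraries 16 and 17 and KD EE only libraries 7 and 8. Ttr in 7 and 8, at 909.9 and 1963 CPM, was the lowest of KD EE among the 17. In that fit 0 members were called in KD, against 0.413% of all genes. In WT 6 were called, against 3.74%, where Ndp and Wnt7a were lost and Wnt6 was added. Groups stood apart upward for 2 members in KD, Fzd7 and Wnt1, 4.65% against 2.13% of all genes, and downward for 0 against 0.984%.

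**Figure D2:**
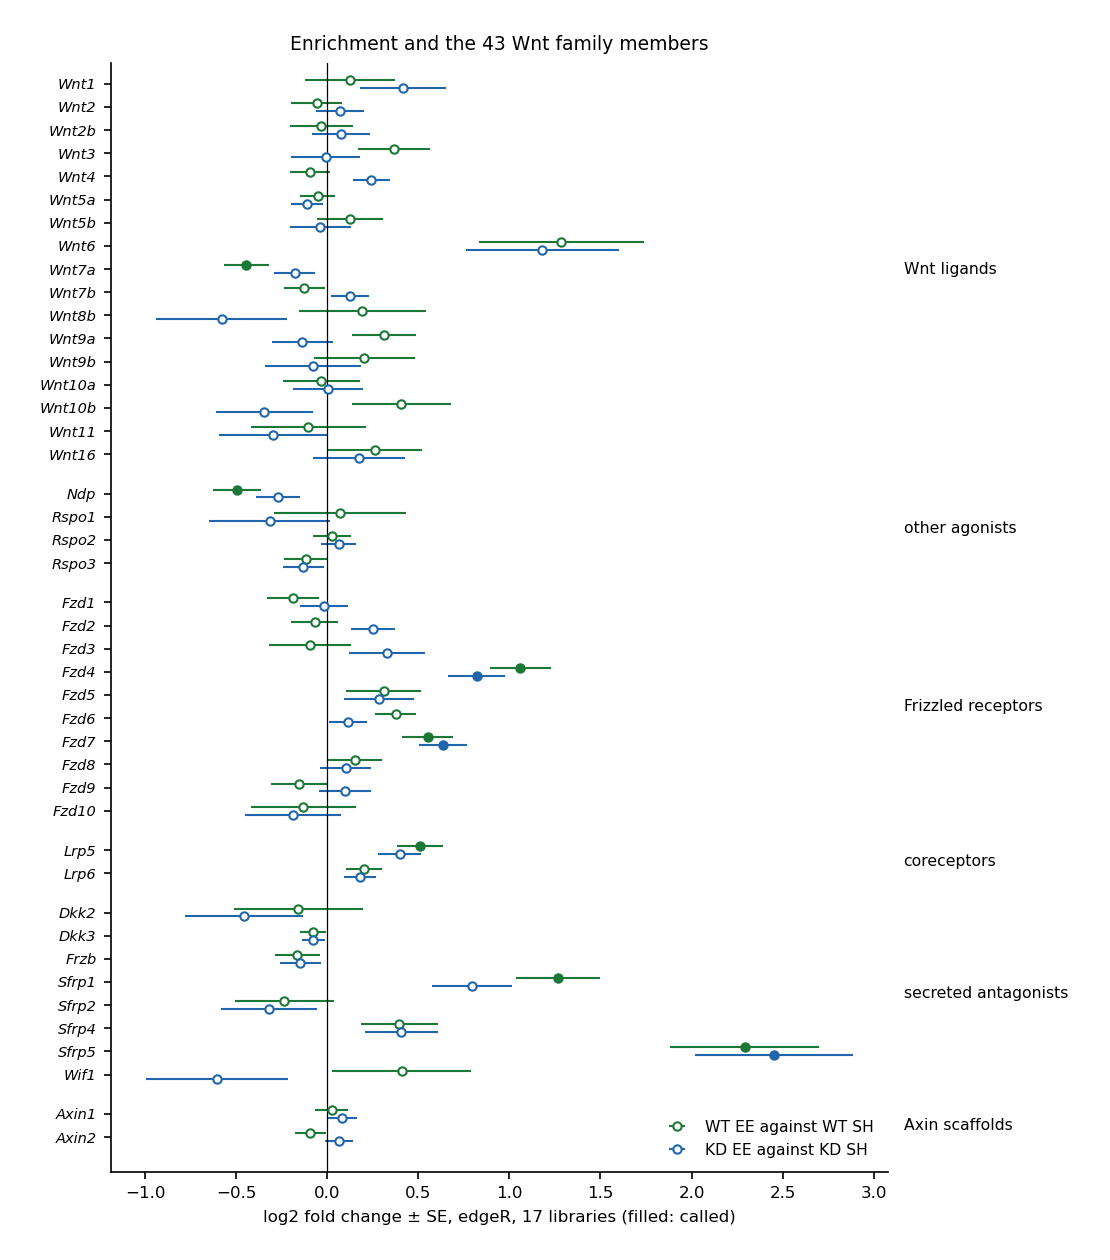
Log2 fold change of each of the 43 members with enrichment, WT in green and KD in blue, with bars of 1 standard error from the edgeR fit over 17 libraries and filled points for called members, grouped by role. Sfrp5 lies farthest to the right in both genotypes (2.29 in WT and 2.45 in KD), and most members lie close to 0.

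Fzd4, the receptor that carries norrin and Wnt signals in the vasculature of the brain and retina, was at 13.2, 14.8, 13.4, 12.3 and 11.4 CPM in the WT SH libraries and at 24.6, 24.3 and 32.2 CPM in the WT EE libraries. Every enriched library lay above every standard-housed one. The means were 13 ± 1.26 (SD, n = 5) and 27.0 ± 4.5 CPM (SD, n = 3), and the log2 fold change was 1.06 ± 0.17 (SE) at an adjusted p of 0.00024. In KD, Fzd4 was at 10.7, 13.5, 13.1, 14.7 and 11.7 CPM with SH and at 13.6, 19.4, 25.0 and 30.9 CPM with EE. Library 7 fell within the standard-housed range and the other three enriched libraries lay above it. The KD log2 fold change was 0.82 ± 0.16 (adjusted p = 0.00374), and both calls held when any 1 of the 17 libraries was left out.

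Fzd7, a receptor of the beta-catenin branch that is used by many stem and progenitor cells, was at 10.5, 14.1, 11.4, 10.9 and 15.2 CPM in WT SH and at 18.3, 16.8 and 19.3 CPM in WT EE. Its groups did not overlap, and the log2 fold change was 0.55 ± 0.14 (adjusted p = 0.0238). In KD it was at 11.5, 9.94, 10.4, 9.54 and 8.69 CPM with SH and at 12.4, 12.7, 18.2 and 18.4 CPM with EE, again without overlap, and the log2 fold change was 0.63 ± 0.13 (adjusted p = 0.00845). The enriched KD libraries fell into a lower pair (7 and 8) and a higher pair (32A and 36A). The WT call was lost without library 10, 13, 14, 16 or 33A (adjusted p up to 0.0932), and the KD call was lost without 32A or 36A (adjusted p up to 0.0659). Fzd6, a receptor known for planar cell polarity, did not pass the test: it was at 8.64 to 10.4 CPM in WT SH and at 11.9, 12.4 and 13.6 CPM in WT EE, without overlap, with a log2 fold change of 0.37 ± 0.11 (adjusted p = 0.0635), and at 7.88 to 10.5 CPM and 9.28 to 10.6 CPM in KD SH and KD EE. The exons of Fzd6 overlap an antisense gene, Gm26704, and counting without strand cannot separate them. The other seven Frizzled genes, Fzd1, Fzd2, Fzd3, Fzd5, Fzd8, Fzd9 and Fzd10, were not called in either genotype, with log2 fold changes from -0.19 (Fzd1) to 0.31 (Fzd5) in WT and from -0.19 (Fzd10) to 0.33 (Fzd3) in KD.

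Lrp5, the coreceptor that pairs with Frizzled in the beta-catenin branch, was at 11.4, 15.5, 13.8, 13.9 and 12.9 CPM in WT SH and at 19.9, 20.02 and 17.9 CPM in WT EE. All 3 enriched libraries lay above the standard-housed ones, and the log2 fold change was 0.51 ± 0.13 (adjusted p = 0.0193), a call lost without library 10, 16 or 17 (adjusted p up to 0.0983). In KD it was at 10.3, 14.5, 13.4, 9.76 and 13.8 CPM with SH and at 16.7, 14, 16.1 and 18.9 CPM with EE, with a log2 fold change of 0.40 ± 0.12 that did not pass the test (adjusted p = 0.11). Its close relative Lrp6 had log2 fold changes of 0.20 ± 0.10 in WT and 0.18 ± 0.09 in KD (adjusted p = 0.365 and 0.471).

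Sfrp1, a secreted decoy that carries a Frizzled-like domain, was at 4.57, 5.48, 4.01, 5.23 and 4.72 CPM in WT SH and at 13.2, 9.89 and 11.4 CPM in WT EE. The lowest enriched library was well above the highest standard-housed one, and the log2 fold change was 1.26 ± 0.23 (adjusted p = 0.00113). In KD it was at 4.51, 5.46, 4.06, 5.48 and 4.30 CPM with SH and at 3.25, 6.30, 12.2 and 10.04 CPM with EE. Library 7 had the lowest level of the 9 KD libraries and 32A the highest, and the log2 fold change of 0.79 ± 0.22 did not pass the test (adjusted p = 0.0734). That value ran from 0.51 without library 32A to 1.01 without library 7, it was called in 2 of the 17 fits that left out 1 library, and it was called by DESeq2 and in edgeR with no filter on low counts. Sfrp5, a decoy of the same family, was scarce with standard housing, at 0.576, 0.913, 0.173, 0.770 and 0.641 CPM in WT SH, and at 3.17, 2.84 and 2.74 CPM in WT EE. It had the largest log2 fold change of any member in both genotypes, 2.29 ± 0.41 in WT (adjusted p = 0.000918) and 2.45 ± 0.43 in KD (adjusted p = 0.00157). The KD libraries stood at 0.447, 0.242, 0.186, 0.759 and 0.225 CPM with SH and at 0.386, 1.36, 2.64 and 2.34 CPM with EE, so that library 7 again lay within the standard-housed range. Sfrp5 had between 5 and 124 counts in the 22 libraries, and its low values carry the counting error of a few reads. The WT calls of Sfrp1 and Sfrp5 and the KD call of Sfrp5 held when any 1 of the 17 libraries was left out.

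Wnt7a, a ligand of neurons and neural progenitors that acts on synapses and on the endothelium of the blood-brain barrier, went the other way. It was at 13.7, 18.1, 15.1, 14.2 and 19.0 CPM in WT SH and at 13.4, 10.6 and 11.2 CPM in WT EE, so that the groups were separated by a narrow gap between libraries 10 and 16. It fell by 0.44 ± 0.12 on the log2 scale (adjusted p = 0.0406), a call lost without library 11, 15, 17 or 33A (adjusted p up to 0.255). In KD it was at 19.2, 17.6, 16.6, 14.6 and 17.2 CPM with SH and at 17.2, 15.7, 14.1 and 13.7 CPM with EE, an overlap, with a log2 fold change of -0.18 ± 0.11 (adjusted p = 0.58). Ndp, the norrin ligand of Fzd4 and in the brain a product of astrocytes among other cells, was at 8.37, 6.43, 7.57, 7.95 and 8.13 CPM in WT SH and at 5.90, 4.68 and 5.72 CPM in WT EE. It fell by 0.50 ± 0.13 on the log2 scale (adjusted p = 0.0322), and the call was lost without library 10, 13, 14, 15, 16, 17 or 33A (adjusted p up to 0.251). In KD, Ndp was at 8.67, 6.60, 8.2, 9.38 and 7.20 CPM with SH and at 7.5, 6.95, 6.34 and 5.82 CPM with EE, with a log2 fold change of -0.27 ± 0.12 (adjusted p = 0.395). Over the 17 libraries in WT, the receptor Fzd4 was thus called higher and its ligand Ndp lower, and a link between them was not tested.

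**Figure D3:**
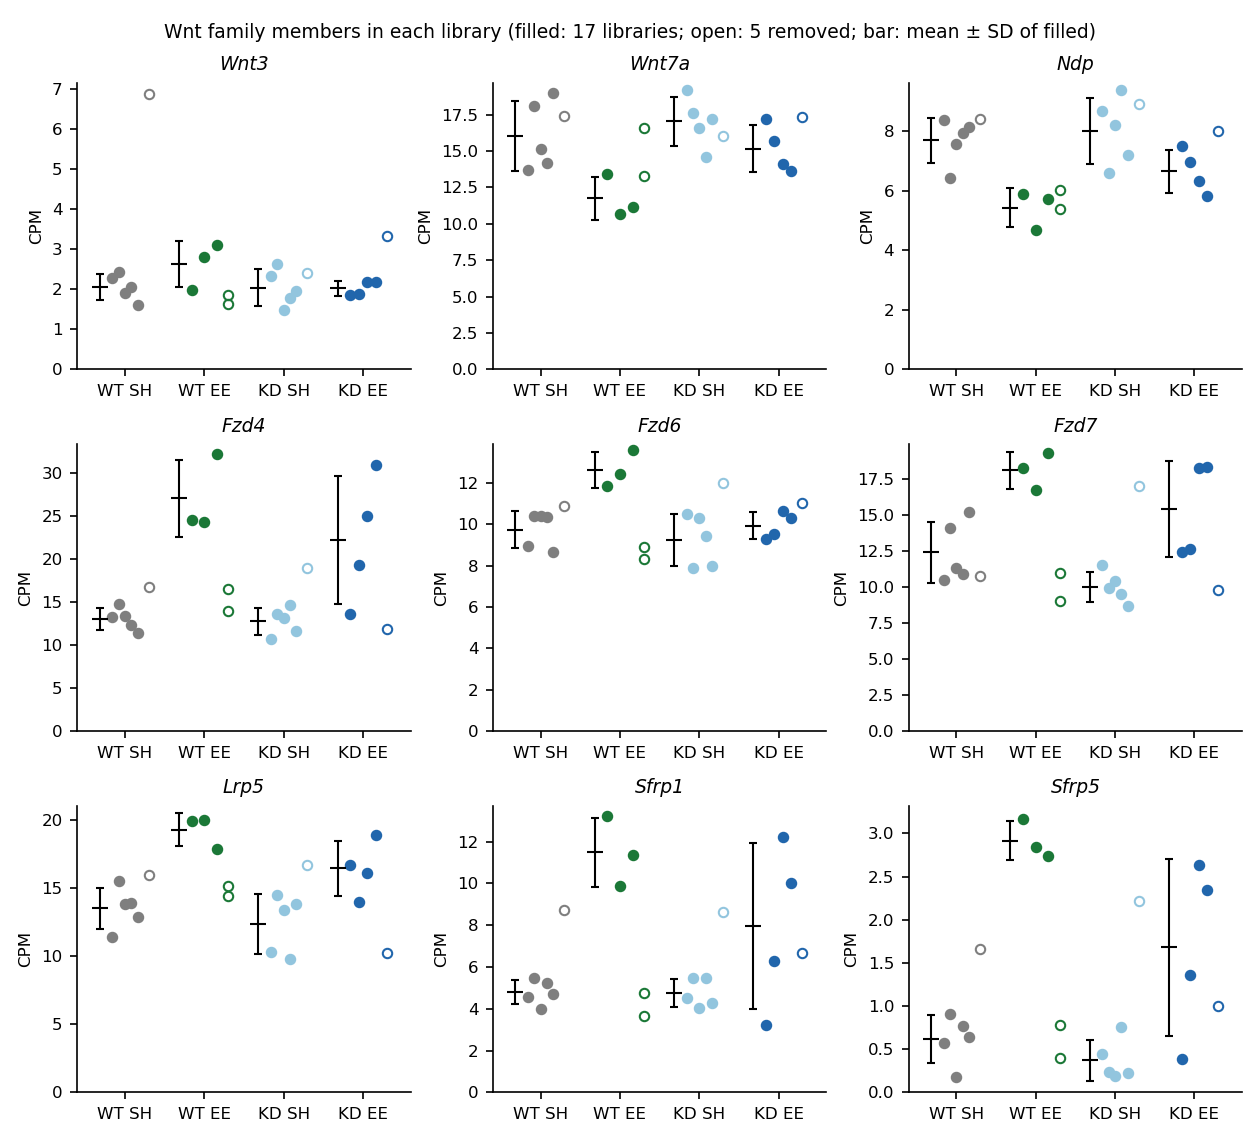
CPM of 9 members in each of 22 libraries by group, on linear axes from 0, with the 17 libraries of the comparisons filled, the 5 removed ones open, and the mean ± SD of the filled points as a bar. Fzd4, Fzd7, Lrp5, Sfrp1 and Sfrp5 lie higher in the filled WT EE points than in every filled WT SH point, and the open WT EE points lie near WT SH, whereas the open WT EE points of Ndp, at 5.39 and 6.03 CPM, lie with the filled ones.

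The stretch of 250 bases upstream of the RefSeq transcription start was examined for members that moved in each direction and had a matching entry, read from the GRCm38.p6 assembly and written 5′ to 3′ on the strand of the gene, with CG dinucleotides, the bases that DNA methylation acts on, in capitals. Sfrp5 is on the minus strand at chr19:42202253-42202502 and Fzd4 on the plus strand at chr7:89404116-89404365, and both rose with enrichment in WT and KD. Wnt7a is on the minus strand at chr6:91411354-91411603 and Ndp on the minus strand at chrX:16911775-16912024, and both fell in WT.
Sfrp5: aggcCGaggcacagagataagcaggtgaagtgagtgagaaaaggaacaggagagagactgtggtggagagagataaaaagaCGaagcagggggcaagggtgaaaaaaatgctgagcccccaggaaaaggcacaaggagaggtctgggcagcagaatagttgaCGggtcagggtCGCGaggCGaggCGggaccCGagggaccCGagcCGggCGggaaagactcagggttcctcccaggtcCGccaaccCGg
Fzd4: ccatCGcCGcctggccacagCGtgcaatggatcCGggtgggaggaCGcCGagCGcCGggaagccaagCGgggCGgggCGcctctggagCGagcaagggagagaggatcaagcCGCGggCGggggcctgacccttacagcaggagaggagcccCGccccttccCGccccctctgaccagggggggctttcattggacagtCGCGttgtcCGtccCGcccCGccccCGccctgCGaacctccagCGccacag
Wnt7a: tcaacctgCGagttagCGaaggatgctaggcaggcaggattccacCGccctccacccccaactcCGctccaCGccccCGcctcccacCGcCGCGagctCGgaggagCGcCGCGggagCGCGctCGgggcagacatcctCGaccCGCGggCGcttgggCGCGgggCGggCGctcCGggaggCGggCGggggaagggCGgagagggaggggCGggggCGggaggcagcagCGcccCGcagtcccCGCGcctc
Ndp: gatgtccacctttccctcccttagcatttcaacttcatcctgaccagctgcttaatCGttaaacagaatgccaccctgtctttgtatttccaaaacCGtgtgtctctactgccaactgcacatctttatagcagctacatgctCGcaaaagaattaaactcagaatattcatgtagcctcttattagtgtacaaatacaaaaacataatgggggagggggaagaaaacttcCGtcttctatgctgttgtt
The windows held 13 CG pairs in Sfrp5, 25 in Fzd4, 34 in Wnt7a and 4 in Ndp, against a median of 6 over all promoters in the same set and 22 over the 28 members with an entry. GC content was 59.6%, 72.8%, 77.6% and 41.2% in the same order, against a median of 52.4% over all. CTTTGA, the core of the TCF/LEF sites through which beta-catenin acts, TAATCC, the core read by OTX2, and TGACGTCA, the palindromic CRE, were searched on both strands. They occur in 13.8%, 6.25% and 1.55% of the 32851 windows, and none of these letters is in the 4 windows printed. Of the 28 members with an entry, 4 held the TCF/LEF core, 3 the OTX2 core and 0 the CRE.

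The remaining members showed no call with enrichment in either genotype. Among the ligands, Wnt6 had the largest log2 fold changes, 1.28 ± 0.45 in WT and 1.18 ± 0.42 in KD (adjusted p = 0.15 and 0.232), from a mean of 0.403 ± 0.134 CPM in WT SH (SD, n = 5). Its WT EE libraries were at 1.41, 1.44 and 0.265 CPM, so that 33A lay within the standard-housed range. Wnt1, Wnt2, Wnt2b, Wnt3, Wnt4, Wnt5a, Wnt5b, Wnt7b, Wnt8b, Wnt9a, Wnt9b, Wnt10a, Wnt10b, Wnt11 and Wnt16 completed the ligands, and the uncalled ligands ran from -0.13 (Wnt7b) to 1.28 (Wnt6) on the log2 scale in WT and from -0.58 (Wnt8b) to 1.18 (Wnt6) in KD. Wnt7b, the most abundant ligand per kilobase, was at 47.7 ± 5.89 CPM in WT SH and 43.7 ± 2.29 CPM in WT EE. The R-spondins Rspo1, Rspo2 and Rspo3 had log2 fold changes of 0.07, 0.02 and -0.12 in WT and of -0.32, 0.06 and -0.13 in KD. Among the antagonists, Dkk2, Dkk3, Frzb, Sfrp2, Sfrp4 and Wif1 ranged from -0.24 (Sfrp2) to 0.41 (Wif1) in WT and, with Sfrp1 at 0.79 set aside, from -0.61 (Wif1) to 0.41 (Sfrp4) in KD. Wif1 had 0 counts in KD EE library 7, which allows up to 0.231 CPM, and 0.259 to 0.703 CPM in the other three KD EE libraries. Axin2, which is both a scaffold and a widely used target gene of the beta-catenin branch, was at 25.1 ± 1.61 CPM in WT SH, 23.5 ± 1.94 in WT EE, 23.3 ± 1.79 in KD SH and 24.4 ± 1.19 in KD EE. Its log2 fold change was -0.09 ± 0.08 in WT and 0.06 ± 0.08 in KD (adjusted p = 0.692 and 0.806).

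Genotype was compared within each housing. No member was called between WT SH and KD SH, where 3 had an unadjusted p under 0.05, 6.98% against 4.95% of all genes, and 0 of all genes were called (0%). The 3 were higher in WT: Wnt4 at 15 ± 1.10 against 12.2 ± 1.04 CPM, a log2 difference of 0.30 ± 0.10, Fzd7 (0.30 ± 0.13) and Fzd2 (0.28 ± 0.11), all with an adjusted p of 0.881. No member was called between WT EE and KD EE either, where 5 had an unadjusted p under 0.05, 11.6% against 6.4% of all genes, and 1 of all genes was called (0.00535%). These were Fzd6, Wif1, Wnt8b and Wnt9a, with higher values in WT EE, and Wnt7a, with lower ones, at log2 differences of 0.34, 1.02, 0.87, 0.45 and -0.36. The interaction of genotype and housing, which asks whether enrichment acted differently in WT and KD, gave 0 calls among members and 0% among all genes, with 1 member, Wnt4, at an unadjusted p under 0.05, 2.33% against 5.51% of all genes. DESeq2 called 0 members in these 3 comparisons. Over the 22 libraries edgeR also called 0 members and 0 genes in them, with 2, 3 and 1 members at an unadjusted p under 0.05. These were 4.65%, 6.98% and 2.33% of members, against 5.76%, 2.61% and 2.04% of all genes. Wnt4 was higher by 0.30 ± 0.09 in WT SH than in KD SH over the 22 (adjusted p = 0.811). For members called by edgeR in WT and not in KD, the interaction was 0.47 ± 0.32 for Sfrp1, 0.11 ± 0.17 for Lrp5, -0.23 ± 0.18 for Ndp and -0.26 ± 0.16 for Wnt7a on the log2 scale (adjusted p from 0.875 to 0.933), so these data do not show that the 2 genotypes differed in their response to enrichment.

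When the 5 removed libraries were restored, the calls did not hold. Over the 22 libraries 0 members were called in WT or in KD, and 0% of all 18482 genes tested in either, by edgeR, with 9 and 6 members at an unadjusted p under 0.05, 20.9% and 14% of members against 8.65% and 9.63% of all genes. Fzd4 stood at 0.71 ± 0.21 in WT and at 0.58 ± 0.21 in KD on the log2 scale (adjusted p = 0.399 and 0.467). Sfrp5 went to 1.36 ± 0.60 and 1.27 ± 0.61, and Sfrp1 to 0.66 ± 0.30 and 0.54 ± 0.31. Fzd7 went to 0.29 ± 0.19 and 0.37 ± 0.20, and Lrp5 to 0.33 ± 0.14 and 0.22 ± 0.14. In the removed libraries other than 12, most members that had risen sat near the level of the other housing group. In WT SH library 12, Fzd4, Lrp5, Sfrp1 and Sfrp5 lay between the WT SH and WT EE ranges of the 17. In WT EE libraries 31B and 35A, Sfrp1 was at 3.67 and 4.76 CPM and Sfrp5 at 0.397 and 0.776 CPM, within or near the WT SH ranges, whereas in WT SH library 12 they were at 8.71 and 1.67 CPM and in KD SH library 2 at 8.63 and 2.22 CPM. Fzd4 was at 13.9 and 16.5 CPM in 31B and 35A, at 16.8 in 12, 18.9 in 2 and 11.9 CPM in KD EE library 9. Fzd7 and Lrp5 followed in most of these libraries, with 17 and 16.7 CPM in library 2 and 9.02 and 15.1 CPM in 31B. In library 12, Fzd7 was at 10.8 CPM, within the WT SH range. Ndp did not. Its log2 fold change in WT was -0.49 ± 0.11 over the 22 libraries against -0.50 over the 17, every one of the 5 WT EE libraries lay below every one of the 6 WT SH libraries, and its adjusted p was 0.203. In KD, Wnt1 also stood apart over the 22, higher with EE, with a log2 fold change of 0.56 ± 0.21 (adjusted p = 0.467). Wnt1 had only 10 to 50 counts in these libraries. The share of all genes that stood apart over the 22 was not computed. Wnt7a went to -0.32 ± 0.11 (adjusted p = 0.414), with 31B at 16.6 CPM.

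Members were then set against Ttr directly, as a slope across the 22 libraries within the 4 groups, in log2 units of the member per doubling of Ttr. Of the 43 members, 7 rose with Ttr and 0 fell, 16.3% and 0%, against 5.17% and 1.4% of all genes called in each direction by adjusted p alone. The steepest was Sfrp5, which rose by 0.33 ± 0.05 per doubling (95% interval 0.23 to 0.43, adjusted p = 5.76e-05), followed by Sfrp1 at 0.17 ± 0.03 (0.11 to 0.22, adjusted p = 0.000114), Fzd4 at 0.11 ± 0.02 (0.08 to 0.15, adjusted p = 0.000163) and Fzd7 at 0.10 ± 0.02 (0.07 to 0.14, adjusted p = 0.000411). Lrp5 at 0.07 ± 0.01 (adjusted p = 0.00132) and Fzd6 at 0.06 ± 0.01 (adjusted p = 0.007) were shallower. The 5 members that rose with enrichment in WT were thus among the 7 that rose with Ttr. Both that fell with enrichment had slopes close to 0: Ndp at -0.01 (95% interval -0.04 to 0.02, adjusted p = 0.709) and Wnt7a at -0.02 (-0.05 to 0.01, adjusted p = 0.514). The Fzd6 call was lost without WT EE library 35A (adjusted p = 0.0563). Over the 17 libraries alone the slope called 0 members by edgeR, with 3 at an unadjusted p under 0.05, where 0.182% of all genes were called. That count does not set the members apart from other genes. The 7 edgeR slope calls hold only with the 5 removed libraries included.

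**Figure D4:**
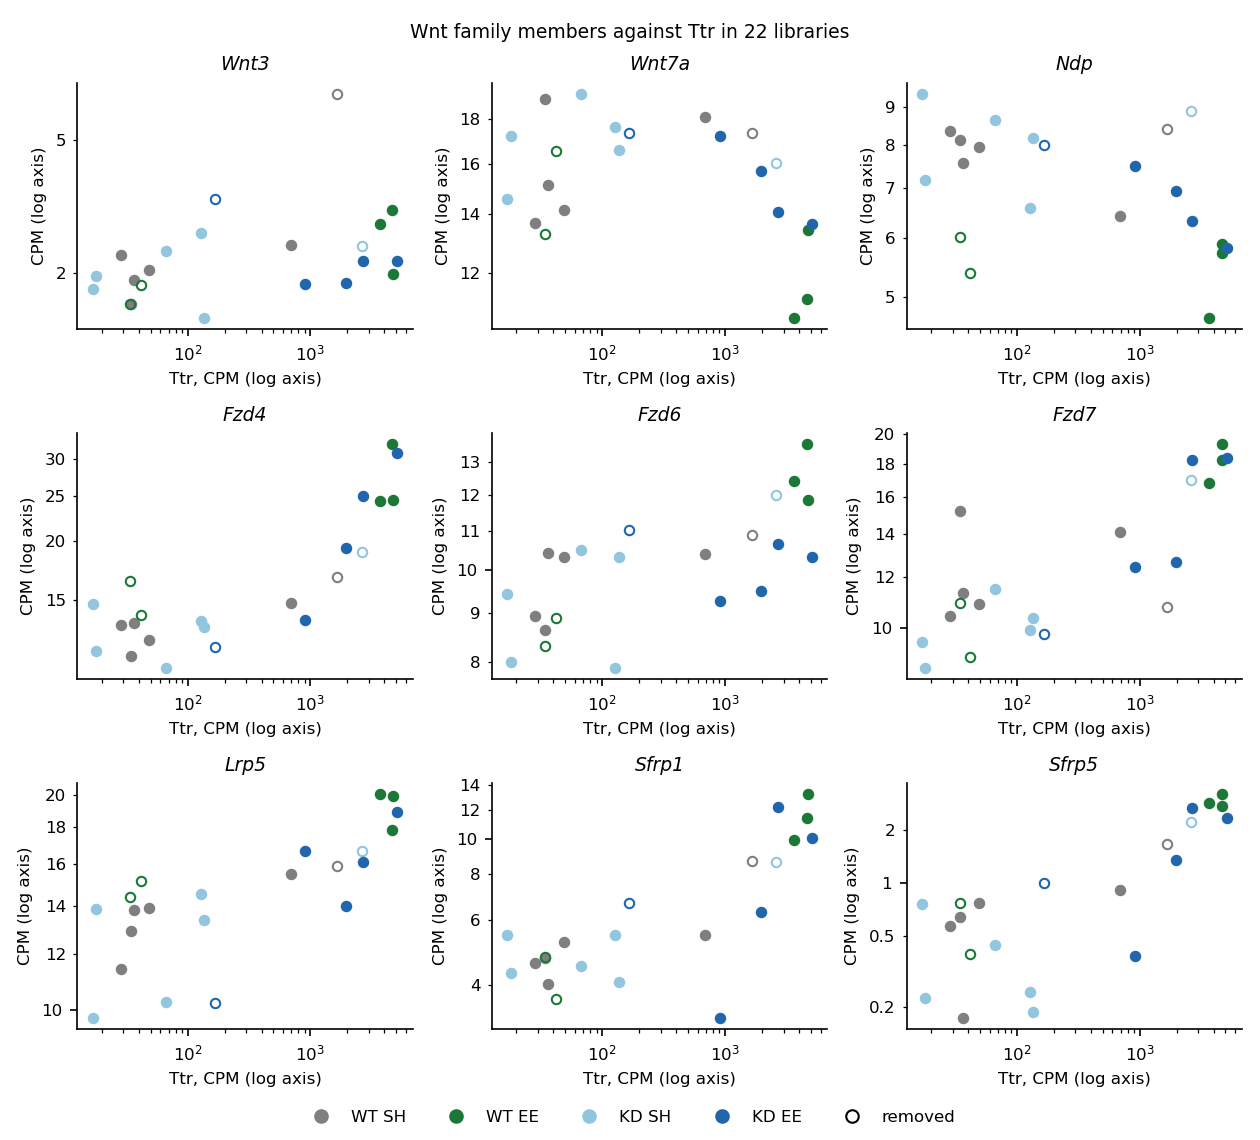
CPM of 9 members against CPM of Ttr in 22 libraries, both on log axes, coloured by group, with removed libraries open. Sfrp1, Sfrp5, Fzd4 and Fzd7 climb from left to right across groups, with removed WT SH library 12 and KD SH library 2 to the right among enriched libraries, whereas Ndp in WT EE is low at both ends of the Ttr range.

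Wnt3, a ligand known for driving adult hippocampal neurogenesis, also passed the test with a slope of 0.11 ± 0.03 (adjusted p = 0.0491), but that value turned on 1 library. It was at 1.62 to 2.43 CPM in the 5 WT SH libraries, at 1.99, 2.80 and 3.09 CPM in WT EE, at 1.47 to 2.64 CPM in KD SH and at 1.86 to 2.18 CPM in KD EE, and at 6.88 CPM in WT SH library 12. Without library 12 the slope was 0.05 and not called (adjusted p = 0.298), and the call held in 7 of the 22 fits that left out 1 library. Wnt9b, the neighbour of Wnt3 on chromosome 11, was at 5.46 CPM in library 12 against 0.474 to 1.01 CPM in the other WT SH libraries, and Fzd10 was at 3.04 against 0.565 to 1.03 CPM. Library 12 also had thalamic markers far above its group, with a summed level of 461.9 CPM for 8 genes against 107 to 129 CPM, Prkcd at 153 CPM and Tcf7l2 at 36.3 CPM, and 2 genes of that list, Tcf7l2 and Lef1, are themselves nuclear effectors of Wnt signals. Whether RNA of neighbouring tissue has a part in these ligand levels was not tested.

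**Figure D5:**
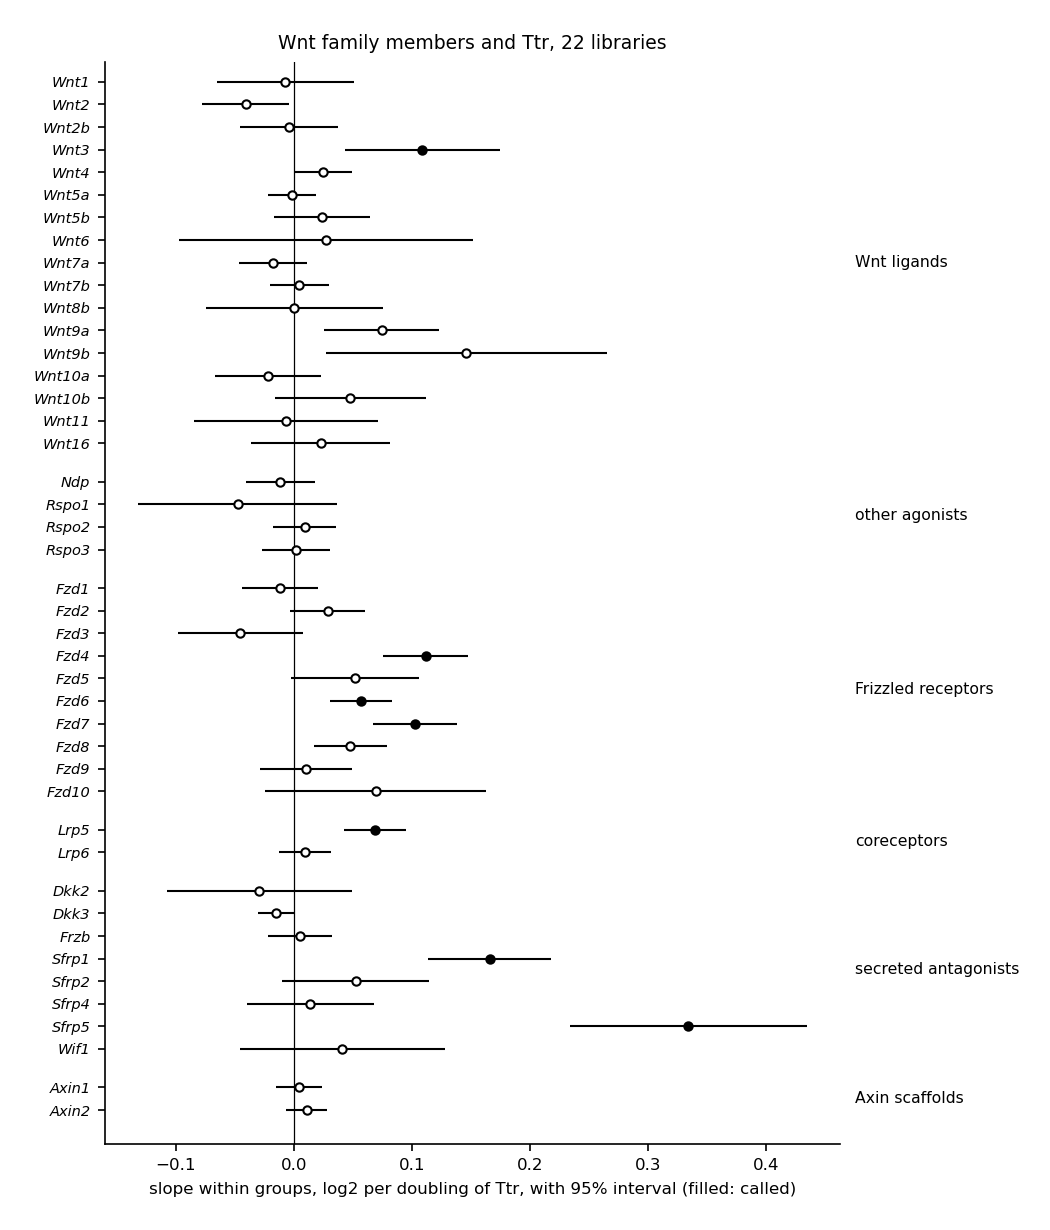
Slope of each of the 43 members on Ttr within groups over 22 libraries, in log2 per doubling of Ttr, with approximate 95% intervals and filled points for called members, grouped by role. The 7 filled points are all to the right of 0, from 0.06 (Fzd6) to 0.33 (Sfrp5), and Ndp and Wnt7a have intervals that include 0.

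With Ttr as a term in the fit, housing was compared at equal Ttr over the 22 libraries. By edgeR 0 members were called in WT and 0 in KD, and 0% of all 18481 genes in each, with 11 and 3 members at an unadjusted p under 0.05, 25.6% and 6.98% of members against 8.22% and 13.5% of all genes. The 11 in WT include Wnt9b (-1.09), Fzd10 (-0.93) and Wnt3 (-0.54), the members that stood far above their group in WT SH library 12. Without that library Wnt3 was at -0.05. For Sfrp5 the WT log2 fold change was 0.33 (95% interval -0.46 to 1.11), for Sfrp1 0.13 (-0.27 to 0.53), for Fzd7 -0.03 (-0.31 to 0.24) and for Lrp5 0.15 (-0.05 to 0.34), all intervals that include 0. Fzd4 went from 0.71 without Ttr in the fit to 0.38 (0.11 to 0.66, adjusted p = 0.489) in WT and from 0.58 to 0.14 (-0.16 to 0.44) in KD. Ndp in WT was at -0.46 (-0.68 to -0.24), almost the value without Ttr in the fit, with an adjusted p of 0.262, and DESeq2 called it and no other member at equal Ttr, where it called 0.181% of all genes. Wnt7a in WT was at -0.28 (-0.49 to -0.06, adjusted p = 0.52). Wnt1 in KD was at 0.57 (0.10 to 1.05, adjusted p = 0.308). Choroid plexus tissue and enrichment cannot be told apart among the 17 libraries, where their groups did not overlap.

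Other genes of the pathway were tested in the same fits. Over all genes, 3.48% were called higher and 0.0695% lower in WT, and 1.64% and 0.0963% in KD. Of 20 genes for Wnt secretion, coreceptors and membrane regulators, 1 was called in WT, Rnf43, a ubiquitin ligase that removes Frizzled receptors and is itself a Wnt target (0.48 ± 0.13, adjusted p = 0.0429), and 0 in KD. Of 30 cytoplasmic and nuclear transducers, among them Ctnnb1, Gsk3b, Dvl1 and Lef1, 0 were called in either genotype, and the list had median log2 fold changes of -0.04 in WT and 0.03 in KD. Of 18 target genes, 14 were tested and Rnf43 was the 1 call, in WT, and 0 of 14 planar polarity genes tested were called. Among 10 other secreted modulators, 1 rose in both genotypes: Sostdc1, an antagonist of Wnt and BMP signals, which went from 3.57 ± 3.39 to 29.9 ± 5.38 CPM in WT (log2 fold change 3.14 ± 0.39, adjusted p = 1.34e-05) and from 2.34 ± 0.88 to 18.1 ± 7.87 CPM in KD (2.91 ± 0.38, adjusted p = 4.72e-05). Among 7 tested genes outside the family that carry a Frizzled-like domain, 2 rose in both. Mfrp went up by 4.82 ± 0.55 in WT and 4.76 ± 0.54 in KD, and Col18a1, a basement membrane collagen, by 1.29 ± 0.20 and 1.03 ± 0.19. On Ttr, Sostdc1 had a slope of 0.56 ± 0.02 and Mfrp one of 0.81 ± 0.02, steeper than any member, beside a median of 0.75 over the 14 choroid plexus genes other than Ttr. Col18a1 and Smo rose with Ttr as well, at 0.18 ± 0.02 and 0.05 ± 0.01, as did Wls, Reck, Cthrc1 and Tcf7l2, while Pygo1 and Tnks fell (-0.03 each).

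Markers of other cell types were examined beside these results. Of 9 genes of meninges and fibroblasts, 6 rose in WT, led by Aldh1a2, Slc6a13, Col1a2 and Ogn at log2 values of 1.20, 1.11, 1.04 and 1.01, and 2 in KD, Col1a2 and Col1a1. Their summed level ran from 147 to 184 CPM in WT SH and from 181 to 234 CPM in WT EE over the 17 libraries. Over the 22 it ran from 147 to 184 CPM in WT SH and from 137 to 234 CPM in WT EE. Of 8 ependymal genes, Cfap126 and Foxj1 rose in WT, and in KD Foxj1 rose and Ccdc153 fell. Of 9 endothelial genes, Slco1c1, a thyroid hormone and anion transporter, rose in WT (0.74 ± 0.12) and 0 in KD, and of 5 tested mural genes 0 were called in either. The median log2 fold change of the endothelial genes was 0.04 in WT. Their summed level ran from 219.0 to 233.7 CPM in WT SH and from 234.0 to 269.1 CPM in WT EE over the 17 libraries. Over the 22 these ranges overlapped, at 219.0 to 262.8 and 230.9 to 269.1 CPM. In KD they overlapped over the 17, at 214.3 to 255.7 CPM with SH and 224.6 to 307.7 CPM with EE. Of 8 hippocampal identity genes Neurod1 and Neurod6 fell in WT (-0.55 and -0.41) and 0 were called in KD. Of 8 dentate granule cell, 6 CA1, 7 astrocyte, 5 microglial and 6 oligodendrocyte genes, 0 were called with enrichment. Ramp3 was the 1 thalamic call, in WT, and Ppp1r1b the 1 striatal call, in both, each upward, of 8 genes in either list. On Ttr, 14 of 14 choroid plexus, 3 of 8 ependymal, 4 of 9 meningeal, 1 of 9 endothelial, 2 of 6 oligodendrocyte, 3 of 8 thalamic and 1 of 8 striatal genes rose, 1 dentate (Dock10) and 1 identity gene (Neurod1) fell, and 0 mural, CA1, astrocyte or microglial genes were called. Over the 17 libraries the summed ependymal level was 45.1 to 50.2 CPM in WT SH and 59.3 to 70.4 in WT EE, but 40.8 to 47.9 in KD SH and 39.8 to 56.0 in KD EE, where 3 of 8 genes were higher. The WT ranges overlapped over the 22, at 42.3 to 50.2 CPM with SH and 29.6 to 70.4 CPM with EE. The part of these cell types in the results on Sfrp1, Sfrp5, Fzd4, Fzd7 and Lrp5 was not tested.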

How the data were processed

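Polyadenylated RNA of mouse hippocampus was sequenced as paired ends from TruSeq v2 libraries, which do not mark strand. Trimming by the authors used Skewer, alignment used STAR 2.5 on GRCm38, and HTSeq gave the raw counts per gene that were deposited, 1 file per library. HTSeq lines that name no gene, 14.0% to 18.6% of each of the 22 libraries, were left out. A series-wide table deposited by the authors, size-factor-normalized values of 17 libraries, was not used.

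Counts were fitted in R 4.3.3 with edgeR 4.0.16 (limma 3.58.1): filterByExpr, TMM scaling and the quasi-likelihood test over 4 groups, with Benjamini-Hochberg adjustment over all genes tested. A call needed an adjusted p of at most 0.05 and a log2 fold change of at least 0.38 either way; slopes on log2 Ttr, fitted with group as a term, used the adjusted p alone. Fold changes used a prior count of 2. CPM per kilobase used the union of exons. DESeq2 1.42.0 was an alternative, and figures were drawn with matplotlib 3.10.9. The fits were tested on simulated data. Every member was named, 9 members and Ttr were given per library, and other lists by counts and up to 4 called genes of largest change. The members and lists were chosen with earlier results of these data known. No 2 libraries of a group were identical (15 pairs in each group). Counting error alone sets the detection limit of 3 counts. Because counting ignored strand, reads of Axin2, Fzd5, Fzd6, Rspo3, Sfrp2, Wnt11, Wnt5a and Wnt7b cannot be told from those of genes that overlap their exons. Promoter windows came from RefSeq on GRCm38.p6, and 15 members had no entry in the table used. Alternatives were the 22 and 24 libraries, DESeq2, its size factors in edgeR, other filters on low counts, adjusted p alone, only the groups compared, no lettered libraries, Ttr as a covariate, the choroid plexus list in place of Ttr, no group term, and leaving out each library. Ttr on a linear scale was added after seeing the data.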

Additional observations from a re-analysis of the deposited data

Results flagged for a closer look

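Within a group, 1 library lay apart from the rest by Dixon's criterion in 22 of the 176 sets of values examined (43 members and Ttr in 4 groups of the 22 libraries), and chance alone marks about 1 in 20. In WT SH library 12, Wnt3 was at 6.88 CPM (the next highest 2.43), Wnt9b at 5.46 (1.01), Fzd10 at 3.04 (1.03) and Sfrp1 at 8.71 (5.48). In KD SH library 2, Ttr was at 2622 CPM (136.0), Fzd7 at 17 (11.5), Sfrp1 at 8.63 (5.48) and Sfrp5 at 2.22 (0.759). Both libraries were among those the study removed.

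KD SH library 5 was set apart for 5 members: Rspo1 at 3.80 CPM and Wnt10a at 6.45 were the highest of their group, and Wnt7b at 30.9, Fzd8 at 3.90 and Axin2 at 20.4 the lowest. In KD EE library 9, Wnt3 was the highest at 3.34 CPM and Fzd5 the lowest at 1.22. In WT SH library 15, Axin2 was the highest at 27.9 CPM and Wnt9a the lowest at 7.22. The remaining values were Axin2 at 25.7 CPM in WT EE library 33A, Wnt1 at 1.11 in WT EE library 16, Wnt2b at 5.38 in WT EE library 35A and Rspo2 at 35.5 in KD SH library 1, each the highest of its group, and Rspo3 at 8.77 in KD SH library 6, the lowest. No explanation of these values was tested.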

How the results depend on the processing

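Of 7 members called with enrichment in WT, 0 were called over the 22 libraries, 0 over all 24 and 0 with Ttr as a covariate over the 17. These fits called 0, 1 and 0 of all genes, so a count of 0 does not set the members apart. Over the 17 libraries Ttr did not overlap between the housing groups, so that covariate cannot separate Ttr from housing. Leaving out 1 library gave 4 to 7 calls, with 4 without WT SH library 10, WT EE library 16 or WT EE library 17. Of 3 in KD, 0 were called over the 22 libraries, 0 over all 24 and 0 with Ttr as a covariate. Each of these KD fits called 0 of all genes. Without the lettered libraries 0 members and 78 of 18901 genes were called in KD. With no filter on low counts 5 members and 455 of 34264 genes were called. Leaving out 1 library gave 2 (KD EE library 32A or 36A) to 5 (KD EE library 8). Of 7 slopes on Ttr, 0 were called over the 17 libraries, where 34 of 18700 genes were called. Leaving out 1 library gave 5 (WT EE library 35A) to 8. At equal Ttr, DESeq2 called 1 member in WT, Ndp, and 64 of 35345 genes, against 0 of each by edgeR. The cause of these changes was not tested. The genotype comparisons and the interaction gave 0 calls among members under each alternative run. Of 2119 values of single genes under the alternatives, 2024 kept their side of the threshold, 88 lost a call and 7 gained one. Most of the 2119 belong to genes not called in that comparison, which could not lose a call. The 2024 therefore do not measure how stable the calls were. The sign changed in 0 of the called values. Uncalled values were not scored for sign, and some changed it, such as Ttr between WT SH and KD SH without WT SH library 11. No paired analysis was possible because no library number is shared between groups. Depth limits Sfrp5 and the scarce ligands, with 5 to 124 counts per library for Sfrp5.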
